A study of Mus musculus with 6 samples.

Results

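The protocadherin genes of the mouse spinal cord were measured in 3 Sox2 cKO and 3 Ctrl mice. A member is a protein-coding gene of the count table whose symbol begins with Pcdh and whose counts add up to at least 30 over the 6 libraries. There were 35 members among 35275 rows, of which 23 belong to the clustered families (Pcdha, Pcdhb and Pcdhg) and 12 are unclustered. Of the 36 protein-coding Pcdh rows, Pcdhb1 lay outside the threshold with a summed count of 10. The members nearest inside it were Pcdh12 with a summed count of 54 and Pcdhb4 with 183.

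Protocadherins are cadherin-related adhesion molecules of the cell surface, most of them known from neurons, where they bind the same protein on a neighbouring cell. The clustered genes lie side by side on mouse chromosome 18, and each neuron uses a few of their promoters, chosen with the help of the DNA-binding protein CTCF and of cohesin, so that the mix of isoforms helps a neuron tell its own branches from those of others; the gamma family is also made by astrocytes and is needed for the survival of spinal interneurons. The unclustered genes stand alone in the genome and are sorted by their cytoplasmic tails into delta-1 members, which carry a site for a protein phosphatase, and delta-2 members, several of which bind the actin-regulating WAVE complex.

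Poly(A) RNA of whole spinal cord was sequenced from C57BL/6 mice in a design that asks how loss of the transcription factor SOX2 from astrocytes changes the RNA of the adult cord. The Sox2 cKO mice had the genotype mGfap-Cre:Sox2fl/fl, in which Cre driven by the mouse Gfap promoter deletes the floxed gene. Cells in whose lineage this promoter was never active keep Sox2. For the Ctrl mice the sources differ. The sample labels give mGfap-Cre:Sox2+/+, the study's methods give littermates with floxed Sox2 alleles, and the design text names either Cre or the floxed allele, so whether the controls carried Cre is not settled here. The age is 90 days in the labels' age field and 80 days in their protocol and in the study's methods. The labels state an RNA integrity number above 6.8, and the methods state a higher minimum. Each group held both sexes, and no library was assigned a sex. Libraries are called by the number of their column, with 2, 4 and 6 from Ctrl and 1, 3 and 5 from Sox2 cKO. Depth, as the sum of a library's counts, was 22444930, 25015776 and 21983098 for Ctrl libraries 2, 4 and 6. For Sox2 cKO libraries 1, 3 and 5 it was 21507911, 28392184 and 26166638, and the groups overlapped. The p-values below measure the spread between these 6 mice and no more, and an exact permutation test of 3 against 3 cannot go below 0.1.

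Sox2, the deleted gene, was examined first as a check of the groups. It had 19.9, 14.8 and 29.5 CPM (counts scaled to library size with TMM normalization) in Ctrl libraries 2, 4 and 6, and 3.16, 2.69 and 2.98 CPM in Sox2 cKO libraries 1, 3 and 5. All 3 Sox2 cKO values were far below the lowest Ctrl value. The log2 fold change of Sox2, Sox2 cKO minus Ctrl as everywhere below, was -2.86 (standard error, or SE, of 0.24, adjusted p = 0.00096, edgeR's quasi-likelihood test with Benjamini-Hochberg adjustment over 16137 genes). Markers of spinal cord tissue were present in all 6 libraries. The 12 genes of this list, among them posterior Hox genes and the glycine transporter Slc6a5, added up to between 1150 and 1311 CPM. The most abundant of them per length, Hoxb8, had a mean of 92.7 FPKM, the authors' deposited values, which divide counts by gene length and library size. The forebrain gene Emx1 had at most 1 count in any library.

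Libraries of both groups stood apart within their group before any member was tested. Sox2 cKO library 1 had the lowest CPM of its group for 15 of the 23 clustered and 8 of the 12 unclustered members. Sox2 cKO library 5 had the highest CPM of its group for 14 of the 23 clustered members. Ctrl library 4 had the highest CPM of its group for 10 of the 23 clustered and 8 of the 12 unclustered members. Ctrl library 2 took no one place among the 23 clustered members, with the highest CPM of its group for 8 and the lowest for 10. It had the lowest CPM of its group for 9 of the 12 unclustered members. The same counts over all genes were not made. By a chi-square per degree of freedom between 2 libraries, over genes with a summed count of at least 30, Ctrl library 2 was nearer to Sox2 cKO libraries 5 (10.78) and 3 (14.7) than to Ctrl libraries 4 (24.75) and 6 (28.75). Over the whole table, edgeR called 5 genes lower and 3 higher without Sox2 cKO library 1, 13 lower and 13 higher without Ctrl library 4, and 3089 lower and 3030 higher without Ctrl library 2, against 2008 lower and 1962 higher with all 6 libraries.

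Levels between genes were compared in FPKM. The row for the gamma cluster, Pcdhgc4, had the highest mean over the 6 libraries, 62.4 FPKM, followed by the delta-1 gene Pcdh9 with 32.5 FPKM and the row for the alpha cluster, Pcdha11, with 22.2 FPKM. Next came Pcdh1 with 15.1, Pcdh7 with 13.2, Pcdh10 with 11 and Pcdh17 with 10.2 FPKM. The order of the first 4 held in each of the 6 libraries, whereas Pcdh1, Pcdh7, Pcdh10 and Pcdh17 each overlapped with the next of these 4 among the Ctrl libraries. A step followed, since the next member, Pcdhb17, had 3.4 FPKM and was below Pcdh17 in 6 of 6 libraries. The other members lay between 0.342 FPKM for Pcdhb4 and 2.74 FPKM for Pcdh19, except Pcdh12 with 0.0687 FPKM. Of the 34 pairs of neighbours in the order, 6 had Ctrl ranges that did not overlap. The order of the members from Pcdhb17 to Pcdhb13 was therefore within the spread between mice at each step. The order in FPKM also rests on the gene length used. Per kilobase of all annotated exonic bases, the mean Ctrl level was 21.6 CPM for Pcdh9 and 24.1 CPM for the alpha row, the reverse of their order in FPKM.

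**Figure D1:**
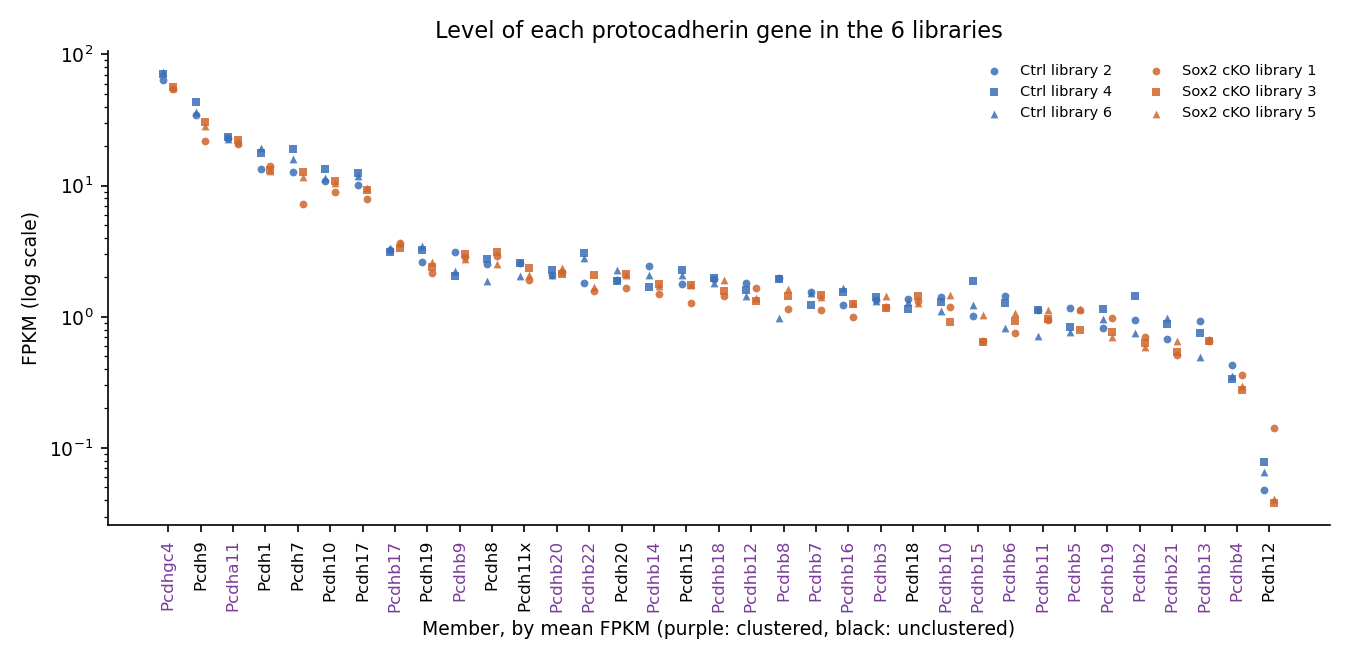
FPKM of the 35 members on a log axis, with 1 point per library, ordered by the mean over the 6 libraries. Pcdhgc4 (62.4 FPKM) leads, 6 further genes lie above 10 FPKM, and most beta genes lie near 1 to 3 FPKM.

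Of the 23 clustered members, all tested, edgeR called 4 lower in Sox2 cKO spinal cord, or 17.4%, beside 12.4% of all 16137 genes tested. Of the 12 unclustered members, 11 passed the filter on low counts and 5 of these were called lower, or 45.5%. Pcdh12 did not pass. No member was called higher by edgeR in either class, beside 12.2% of all genes, and 0 members had an unadjusted p-value below 0.05 in that direction. At an unadjusted p-value below 0.05, 8 clustered and 8 unclustered members were lower, or 34.8% and 72.7%, beside 19.9% of all genes. The median log2 fold change was -0.30 over the clustered and -0.43 over the unclustered members tested, and 0.02 over all genes tested. The estimate was below 0 for 20 of 23 clustered and 10 of 11 unclustered members. The groups were apart in CPM for 8 of 23 clustered and 7 of 11 unclustered members, lower in Sox2 cKO in each case, or 34.8% and 63.6%. Of all genes tested 44.7% were apart in either direction and 22.1% were apart and lower. Some of these members were not apart in FPKM, where the groups overlapped for Pcdhb4, Pcdhb14, Pcdhb15, Pcdhb18 and Pcdh1. For Pcdh10 and Pcdh19 the groups met in FPKM to the digits given. DESeq2 called 5 clustered and 6 unclustered members lower, beside 15.2% of the 15425 genes to which it gave an adjusted p, and 0 members higher, beside 12.9%. In edgeR the counts of lower clustered and unclustered members were 8 and 7 without Ctrl library 2, 0 and 0 without Ctrl library 4, 0 and 1 without Ctrl library 6, 0 and 0 without Sox2 cKO library 1, 0 and 2 without Sox2 cKO library 3, and 2 and 3 without Sox2 cKO library 5. The whole table moved with these fits: in the same order of libraries 18.6%, 0.0794%, 2.9%, 0.0303%, 4.04% and 8.18% of all genes tested were called lower.

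**Figure D2:**
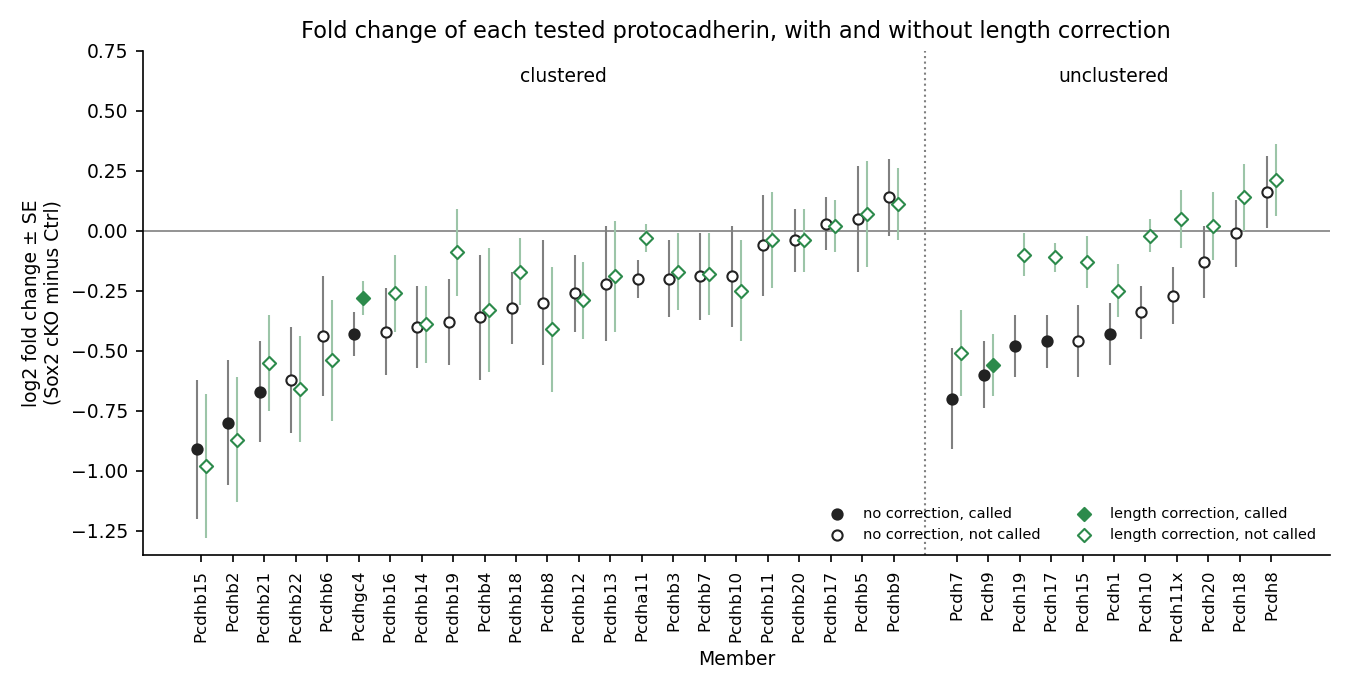
Log2 fold change with its SE for the 34 members tested, clustered on the left and unclustered on the right, before (circles) and after (diamonds) a correction for gene length. Filled symbols have an adjusted p below 0.05. The correction moves the median of the unclustered members from -0.43 to -0.10 and that of the clustered members from -0.30 to -0.25.

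Gene length has to be read beside these values, because fold changes over the whole table followed it. The median log2 fold change was 0.30 in the shortest and -0.25 in the longest of 5 length bins with nearly equal numbers of genes tested, and in the longest 36% were called lower. From the shortest to the longest bin, 0, 2, 11, 7 and 14 members were in them. Of the 14 members in the longest bin 5 were clustered, and 5 were called lower, with a median of -0.40. The median length was 5610 bases over the unclustered, 3506 over the clustered members and 3060 over all genes tested. When each library was corrected for its trend with length, 1 clustered and 1 unclustered member were called lower, Pcdhgc4 and Pcdh9, beside 6.99% of all genes, and 0 were called higher, beside 6.08%. At an unadjusted p-value below 0.05, 6 clustered and 3 unclustered members were lower and 0 higher in that fit, beside 16.9% of all genes lower. Lengths in the table can be those of short isoforms: Pcdh9 has 3714 bases there and 6521 in its longest annotated transcript. With the longest transcript of each gene in the correction, an alternative chosen after the data were seen, Pcdhgc4, Pcdhb2 and Pcdhb15 were called lower among clustered and Pcdh9 among unclustered members, beside 7.31% of all genes, and 0 higher, beside 6.71%. What makes fold changes follow length was not tested.

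**Figure D3:**
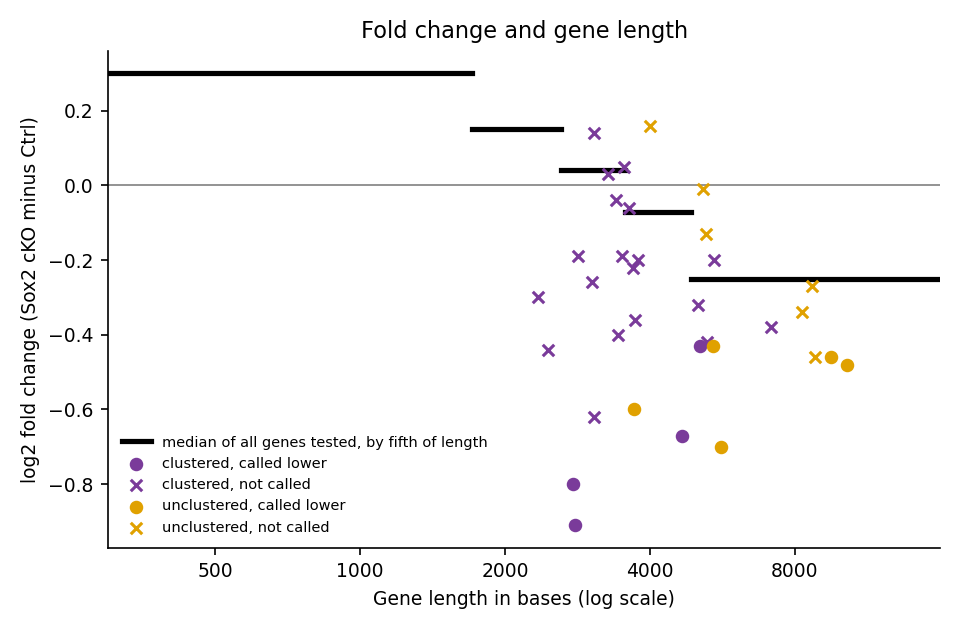
Log2 fold change against gene length on a log axis for the 34 members tested (points) and the median over all genes tested in each of 5 bins of length (black bars, the first and last drawn to the edge of the plot). The medians fall from 0.30 to -0.25, and most members lie below the bar of their own bin.

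Delta-1 members had the 3 highest mean FPKM among the unclustered genes, those of Pcdh9, Pcdh1 and Pcdh7. Pcdh9 (ENSMUSG00000055421, GRCm38 chr14:93013410-93890679, minus strand), an adhesion gene of neurons and glia, had 129.6, 166.5 and 143 CPM in Ctrl libraries 2, 4 and 6, and 76.8, 108.9 and 104.6 CPM in Sox2 cKO libraries 1, 3 and 5. All 3 Sox2 cKO values were below the lowest Ctrl value, and library 1 was the lowest. The log2 fold change of Pcdh9 was -0.60 (SE 0.14, adjusted p = 0.017). It was -0.56 (adjusted p = 0.027) after the length correction, and -0.37 (adjusted p = 0.041) with the longest transcript. In edgeR it was not called without Ctrl library 4 (adjusted p = 0.08), nor without Sox2 cKO library 1 (adjusted p = 0.067). DESeq2 without 1 library, a setting added after seeing the data, called Pcdh9 lower whichever library was left out. Its adjusted p there was 0.013 without Ctrl library 4 and 0.0047 without Sox2 cKO library 1. In a bulk sample, fewer cells of a type that makes Pcdh9 and less of its RNA per cell cannot be told apart.

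Pcdh7 (GRCm38 chr5:57717967-58133230, plus strand), a delta-1 gene first known for adhesion in the embryonic nervous system, had the largest fall among unclustered members in edgeR without a length correction. It had 72.1, 110.9 and 94.6 CPM in Ctrl libraries 2, 4 and 6, and 38.1, 69 and 64.1 CPM in Sox2 cKO libraries 1, 3 and 5. The groups did not overlap, although Ctrl library 2 and Sox2 cKO library 3 lay close together. The log2 fold change was -0.70 (SE 0.21, adjusted p = 0.037), and DESeq2 did not call it (adjusted p = 0.063). It was -0.51 (adjusted p = 0.081) after the length correction, and -0.37 (adjusted p = 0.13) with the longest transcript. It was not called in edgeR without Ctrl library 4 (adjusted p = 0.14) or 6 (0.084), or without Sox2 cKO library 1 (0.1) or 5 (0.05, above the threshold before rounding). Exons of a gene on the other strand cover 21.1% of its exonic bases, and the strand setting of the counting is not given in the sources used here, so reads of the opposite gene may be among its counts.

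Pcdh1, another delta-1 gene, known also from airway epithelium, had 73.8, 99.3 and 110.3 CPM in Ctrl libraries 2, 4 and 6, and 71.5, 69.2 and 69.1 CPM in Sox2 cKO libraries 1, 3 and 5. The Sox2 cKO libraries were nearly level, and Ctrl library 2 was just above them. Its log2 fold change was -0.43 (SE 0.13, adjusted p = 0.034), and -0.25 (adjusted p = 0.13) after the length correction. In edgeR it was still called only without Ctrl library 2. Without the others the adjusted p was 0.12 (Ctrl 4), 0.12 (Ctrl 6), 0.1 (Sox2 cKO 1), 0.096 (Sox2 cKO 3) and 0.081 (Sox2 cKO 5). DESeq2 without 1 library called Pcdh1 lower except without Ctrl library 4 or 6. Pcdh11x, the X-linked delta-1 gene, had 22.3, 23 and 18.9 CPM in Ctrl and 15.6, 19.8 and 18 CPM in Sox2 cKO, so its groups overlapped. It did not pass the test (log2 fold change -0.27, SE 0.12, adjusted p = 0.12).

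The promoters of unclustered members are shown because several of these genes had lower values together. Of the 12 unclustered members 9 matched the RefSeq table of promoters (build GRCm38.p6), which gives 250 bases before and 50 after each start. The letters ACAAAG and ACAATG, cores of the motif that SOX proteins bind, were searched on both strands. They were found in 2 of these 9 genes, Pcdh8 and Pcdh18, and in 9394 of the 32851 promoters of the table, or 28.6%. Neither gene was called. No match was found for the 7 others, among them the called genes Pcdh9, Pcdh17, Pcdh19 and Pcdh7, which says only that the letters are not in this window. For Pcdh19 and Pcdh20 the bases after the start did not match the transcript of the gene. The window of Pcdh15 (chr10:73821617-73821916) lies inside the gene, which starts at base 73099342. The 250 bases before the start are printed 5′ to 3′ on the strand of the gene, with the letters searched, on either strand, in capitals, for Pcdh9 (first of 2 starts, chr14:93890680-93890929, minus strand, GC content 63.6%), Pcdh17 (chr14:84443313-84443562, plus strand, 64.8%), Pcdh8 (chr14:79771313-79771562, minus strand, 51.2%) and Pcdh18 (chr3:49757317-49757566, minus strand, 68%). These are the matched members with the lowest adjusted p, and those with a match to the letters. The match in Pcdh8 begins at base -177 from the start, and those in Pcdh18 at -225 and, past the printed bases, at 6. Over all promoters the median GC content of these 250 bases was 52.4%.
Pcdh9: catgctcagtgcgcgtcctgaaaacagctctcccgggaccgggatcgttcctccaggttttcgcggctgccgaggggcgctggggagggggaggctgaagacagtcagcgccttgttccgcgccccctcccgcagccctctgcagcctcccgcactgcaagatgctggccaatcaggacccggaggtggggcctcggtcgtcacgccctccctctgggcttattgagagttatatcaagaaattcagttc
Pcdh17: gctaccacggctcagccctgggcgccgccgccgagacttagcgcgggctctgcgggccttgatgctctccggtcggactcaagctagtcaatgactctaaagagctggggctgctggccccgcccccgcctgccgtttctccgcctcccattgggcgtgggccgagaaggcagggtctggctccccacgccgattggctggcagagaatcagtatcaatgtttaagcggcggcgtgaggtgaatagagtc
Pcdh8: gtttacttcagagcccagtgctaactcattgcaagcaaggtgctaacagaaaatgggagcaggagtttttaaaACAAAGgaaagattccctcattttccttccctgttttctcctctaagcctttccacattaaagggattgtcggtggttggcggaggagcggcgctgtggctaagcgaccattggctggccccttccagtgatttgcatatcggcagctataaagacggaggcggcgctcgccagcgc
Pcdh18: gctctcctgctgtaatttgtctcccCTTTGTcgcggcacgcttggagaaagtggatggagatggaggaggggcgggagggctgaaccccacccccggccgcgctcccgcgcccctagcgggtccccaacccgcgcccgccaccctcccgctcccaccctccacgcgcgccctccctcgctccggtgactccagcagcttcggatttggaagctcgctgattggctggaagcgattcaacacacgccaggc

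Among the delta-2 members, Pcdh17 (GRCm38 chr14:84443563-84539002, plus strand), which joins axons that grow together and sits at synapses, had 96.8, 123.8 and 119.4 CPM in Ctrl libraries 2, 4 and 6. It had 71.4, 85.3 and 89.6 CPM in Sox2 cKO libraries 1, 3 and 5. The groups did not overlap, and each group had its lowest value in the library that was low for most unclustered members. The log2 fold change was -0.46 (SE 0.11, adjusted p = 0.02), and -0.11 (adjusted p = 0.25) after the length correction. In edgeR it was not called without Ctrl library 4 (adjusted p = 0.092) or 6 (0.065), or without Sox2 cKO library 1 (0.083) or 3 (0.055). DESeq2 without 1 library called Pcdh17 lower whichever library was left out. Pcdh19 (GRCm38 chrX:133582860-133688987, minus strand), whose human counterpart is mutated in an epilepsy of girls, had 26.9, 34.6 and 37.8 CPM in Ctrl libraries 2, 4 and 6, and 21, 23.8 and 26.4 CPM in Sox2 cKO libraries 1, 3 and 5. The highest Sox2 cKO library was only just below the lowest Ctrl library. Its log2 fold change was -0.48 (SE 0.13, adjusted p = 0.029), and -0.10 (adjusted p = 0.45) after the length correction. In edgeR, leaving out Ctrl library 4 or 6 or Sox2 cKO library 1 or 3 removed its call, with adjusted p of 0.11, 0.1, 0.12 and 0.083. DESeq2 called Pcdh19 lower without Sox2 cKO library 3, but not without Ctrl library 4 or 6 or Sox2 cKO library 1.

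Pcdh10, a delta-2 gene that recruits the WAVE complex in axons, had 90.1, 116 and 100.2 CPM in Ctrl libraries 2, 4 and 6, and 70.1, 86 and 86 CPM in Sox2 cKO libraries 1, 3 and 5. The groups did not overlap, and the gene just missed the threshold in edgeR (log2 fold change -0.34, SE 0.11, adjusted p = 0.051), while DESeq2 called it (adjusted p = 0.023). Its estimate after the length correction was -0.02 (adjusted p = 0.86). Pcdh8, an activity-regulated synaptic gene, had 10.2, 11.6 and 7.92 CPM in Ctrl and 11.1, 12 and 10 CPM in Sox2 cKO. Its groups overlapped, and it was the only unclustered member tested with an estimate above 0 in edgeR without a correction (log2 fold change 0.16, SE 0.15, adjusted p = 0.47). Pcdh18, which binds the reelin adaptor Dab1, had 7.09, 6.19 and 7.1 CPM in Ctrl and 6.5, 7.2 and 6.5 CPM in Sox2 cKO. Its groups overlapped as well (log2 fold change -0.01, SE 0.14, adjusted p = 0.96), and the sign of this small estimate turned under 5 other settings and without Ctrl library 2 or 6 or Sox2 cKO library 1 or 5 (0.02, 0.02, 0.01 and 0.01). Of the 5 delta-2 members 2 were called lower, and of the 4 delta-1 members 3 were, beside 12.4% of all genes. After the length correction 0 delta-2 members, with 0 also at an unadjusted p below 0.05, and 1 delta-1 member, with 3 at an unadjusted p below 0.05, were called lower, beside 6.99% of all genes. DESeq2, without a correction, called 3 of the 5 delta-2 and 2 of the 4 delta-1 members lower, beside 15.2% of all genes, so the order of the shares turned. A difference between these counts was not tested.

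The remaining unclustered members are neither delta-1 nor delta-2 genes here. Pcdh15, part of the tip link of hair cells and also made by oligodendrocyte precursors, had 15.8, 20.9 and 19.6 CPM in Ctrl libraries 2, 4 and 6, and 10.7, 14.9 and 15.1 CPM in Sox2 cKO libraries 1, 3 and 5. The groups did not overlap. Its log2 fold change was -0.46 (SE 0.15, adjusted p = 0.052), which edgeR did not call and DESeq2 did (adjusted p = 0.026). After the length correction it was -0.13 (adjusted p = 0.44). Pcdh20 had 10, 10.2 and 12.6 CPM in Ctrl and 8.21, 10.7 and 10.9 CPM in Sox2 cKO, so the groups overlapped (log2 fold change -0.13, SE 0.15, adjusted p = 0.54). Pcdh12, a cadherin of endothelial cells, had 6, 11 and 8 counts in Ctrl libraries 2, 4 and 6 and 17, 6 and 6 counts in Sox2 cKO libraries 1, 3 and 5. The highest value was in library 1, and these few counts allow no comparison.

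**Figure D4:**
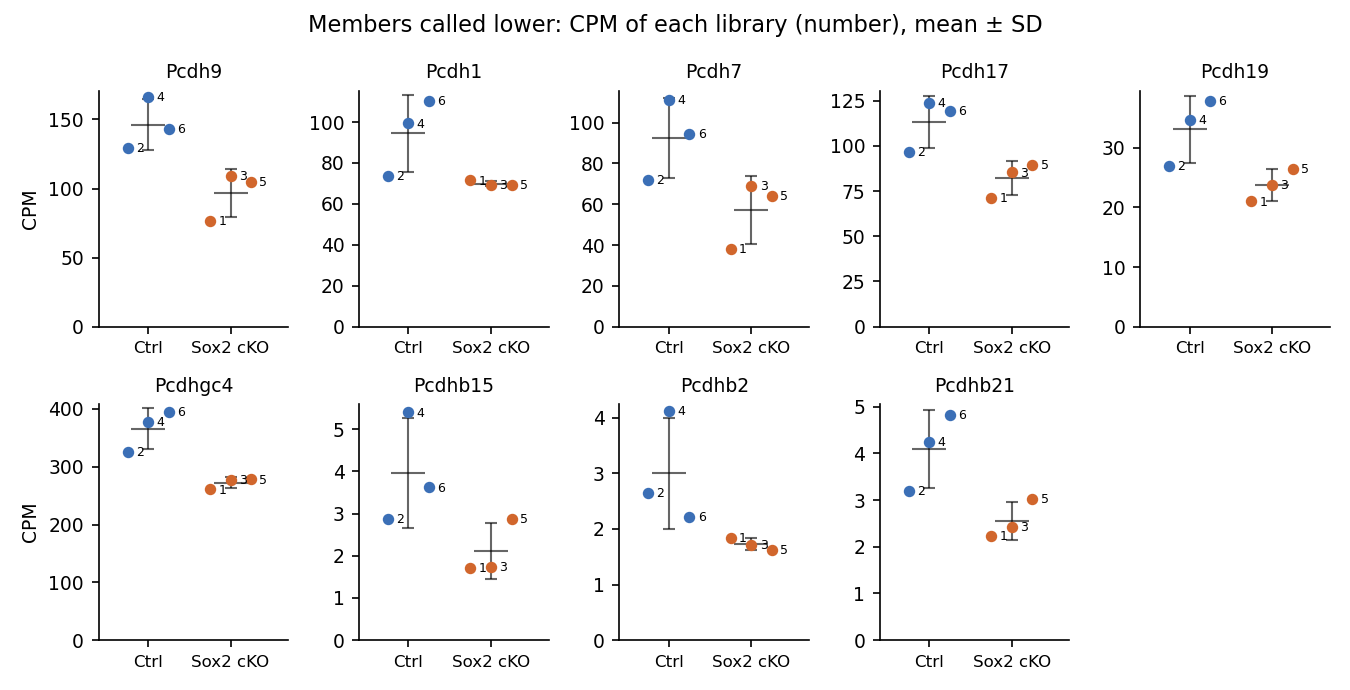
CPM of each library (numbered points) with the group mean and SD (bars) for the 9 members that edgeR called lower, unclustered in the upper and clustered in the lower row. Every axis starts at 0. The groups are apart in each panel, for Pcdh1, Pcdhb15 and Pcdh19 by little.

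The alpha and gamma clusters each entered as 1 row, and these rows cannot be read as single isoforms. In the annotation (GENCODE M21) the alpha cluster has 14 and the gamma cluster 21 protein-coding genes, and 13 alpha and 20 gamma genes were not analysed here. Each isoform of these clusters joins its own variable exon to constant exons that the whole cluster shares. Of the exonic bases of the alpha row (ENSMUSG00000007440, named Pcdha11) 53.4% were shared with other genes on the same strand, and of those of the gamma row (ENSMUSG00000023036, named Pcdhgc4) 37.9%. Of all stretches of 50 bases in their longest transcripts, 60.1% and 41.6% occurred in another gene. How reads on the shared exons were assigned is not given in the sources used here, so the rows may hold reads of several isoforms. With all counts of a row divided by only the exonic kilobases that no other gene shares, the mean Ctrl level was 51.7 CPM for the alpha and 105.2 CPM for the gamma row. These values are too high if reads on shared exons are among the counts. Divided by all exonic kilobases, the levels were 24.1 and 65.3 CPM. The mean Ctrl FPKM, with another normalization and length, were 23 and 69.4.

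The gamma row, Pcdhgc4, named for a C-type isoform needed for the survival of interneurons, had 325.7, 377 and 394.3 CPM in Ctrl libraries 2, 4 and 6, and 260.8, 277.3 and 278.1 CPM in Sox2 cKO libraries 1, 3 and 5. The Sox2 cKO libraries lay close together and all were below the Ctrl libraries. The log2 fold change was -0.43 (SE 0.09, adjusted p = 0.015), and -0.28 (adjusted p = 0.033) after the length correction. In edgeR it was not called without Ctrl library 4 (adjusted p = 0.071) or 6 (0.053), or without Sox2 cKO library 1 (0.069) or 3 (0.05, above the threshold before rounding). DESeq2 without 1 library called Pcdhgc4 lower whichever library was left out. Its adjusted p there was 0.0072 without Ctrl library 4 and 0.0044 without Sox2 cKO library 1. Of the 5 C-type isoforms the other 4, Pcdhac1, Pcdhac2, Pcdhgc3 and Pcdhgc5, were not analysed here. The alpha row, Pcdha11, from a family that takes part in the wiring of serotonergic axons, had 125.6, 132.5 and 129.2 CPM in Ctrl libraries 2, 4 and 6, and 105.8, 116.2 and 115.4 CPM in Sox2 cKO libraries 1, 3 and 5. The groups did not overlap, but the row did not pass the test (log2 fold change -0.20, SE 0.08, adjusted p = 0.083). After the length correction the estimate was -0.03 (adjusted p = 0.78).

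The beta cluster gave 21 members, most of them annotated with 1 exon, and all without a constant part. Together they had 113.9, 120.5 and 112.6 CPM in Ctrl libraries 2, 4 and 6, and 91.1, 94.4 and 104.4 CPM in Sox2 cKO libraries 1, 3 and 5. The sums did not overlap between groups, and the Sox2 cKO mean was 83.5% of the Ctrl mean. Of the 21 genes 3 were called lower, or 14.3% beside 12.4% of all genes, and 18 had an estimate below 0, with a range from -0.91 to 0.14 and a median of -0.30. Between 1.8% and 12% of the 50-base stretches of these 21 genes occurred in another gene, so some reads may be counted for a related gene.

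Pcdhb15 had 64, 130 and 75 counts, or 2.87, 5.4 and 3.62 CPM, in Ctrl libraries 2, 4 and 6. It had 39, 51 and 76 counts, or 1.71, 1.74 and 2.87 CPM, in Sox2 cKO libraries 1, 3 and 5. The highest Sox2 cKO and the lowest Ctrl library met at 2.87 CPM and differed only past the digits given. The log2 fold change was -0.91 (SE 0.29, adjusted p = 0.044). Pcdhb2 had 2.65, 4.12 and 2.22 CPM in Ctrl libraries 2, 4 and 6, and 1.84, 1.71 and 1.62 CPM in Sox2 cKO libraries 1, 3 and 5. Ctrl library 4 was far above the other Ctrl libraries, and the groups did not overlap. Its log2 fold change was -0.80 (SE 0.26, adjusted p = 0.047). Pcdhb21 had 3.19, 4.24 and 4.83 CPM in Ctrl libraries 2, 4 and 6, and 2.24, 2.42 and 3.02 CPM in Sox2 cKO libraries 1, 3 and 5. The groups were apart, with a log2 fold change of -0.67 (SE 0.21, adjusted p = 0.046). It shares 455 exonic bases with its neighbour Pcdhb22, which just missed the threshold in edgeR (log2 fold change -0.62, adjusted p = 0.06) and was called by DESeq2 (adjusted p = 0.031). In edgeR no call of these 3 genes held without Ctrl library 4 (adjusted p = 0.19 for Pcdhb15, 0.21 for Pcdhb2 and 0.14 for Pcdhb21) or 6 (0.078, 0.05 and 0.15). Nor did one hold without Sox2 cKO library 1 (0.15, 0.11 and 0.15) or 3 (0.14, 0.12 and 0.13). Without Sox2 cKO library 5 only Pcdhb15 was called (0.032, 0.11 and 0.051). DESeq2 called Pcdhb2 and Pcdhb15 without Ctrl library 6, and none of the 3 without Ctrl library 4 or Sox2 cKO library 1 or 3. All 3 called beta genes missed the threshold after the length correction (adjusted p = 0.054 for Pcdhb15, 0.052 for Pcdhb2 and 0.094 for Pcdhb21), although the estimates for Pcdhb15 and Pcdhb2 were further below 0, at -0.98 and -0.87.

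Pcdhb17, the most abundant beta gene per length, overlapped between the groups. It had 10.6, 10.7 and 11.7 CPM in Ctrl libraries 2, 4 and 6, and 11.3, 10.6 and 11.8 CPM in Sox2 cKO libraries 1, 3 and 5, a log2 fold change of 0.03 (SE 0.11, adjusted p = 0.85). Its share of the summed beta CPM was 9.51% ± 0.776 (SD, n = 3) in Ctrl and 11.7% ± 0.676 (SD, n = 3) in Sox2 cKO, and the groups did not overlap in this share. The share of Pcdhb15 was 3.41% ± 0.995 (SD, n = 3) in Ctrl and 2.16% ± 0.514 (SD, n = 3) in Sox2 cKO, with overlap. These shares are descriptions and were not tested. The least abundant beta member, Pcdhb4, had 1.62, 1.29 and 1.4 CPM in Ctrl and 1.27, 0.989 and 1.1 CPM in Sox2 cKO. Its groups did not overlap, but it did not pass the test (log2 fold change -0.36, SE 0.26, adjusted p = 0.32).

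Summed over members, the 23 clustered genes had 565.1, 630 and 636.2 CPM in Ctrl libraries 2, 4 and 6, and 457.7, 487.9 and 497.9 CPM in Sox2 cKO libraries 1, 3 and 5. The 12 unclustered genes had 555, 723.5 and 671.8 CPM in Ctrl, and 401.7, 507 and 500.6 CPM in Sox2 cKO. In both classes every Sox2 cKO sum was below every Ctrl sum, and library 1 was the lowest. The Sox2 cKO mean was 78.8% of the Ctrl mean for clustered and 72.3% for unclustered genes. The clustered sum was mostly that of 2 rows, since the gamma row made up 59.8% and the alpha row 21.2% of it in Ctrl. Taken apart, the Sox2 cKO mean was 74.4% of the Ctrl mean for the gamma row, 87.1% for the alpha row and 83.5% for the summed beta genes. The unclustered sums had means of 650.1 ± 86.3 CPM in Ctrl and 469.8 ± 59.1 CPM in Sox2 cKO (SD, n = 3), and a difference between the classes was not tested.

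Genes that act on the choice of cluster promoters were read from a list of 15. Of these, 6 were called lower and 1 higher, or 40% and 6.67% beside 12.4% and 12.2% of all genes, and the median over the list was -0.22 (log2), at a median length of 5652 bases. Stag2 and Smc3, subunits of cohesin, had log2 fold changes of -0.39 (SE 0.09, adjusted p = 0.02) and -0.36 (SE 0.08, adjusted p = 0.018). Smchd1, a repressor of the clusters, had -0.33 (SE 0.11, adjusted p = 0.045), and its partner Lrif1 had 0.66 (SE 0.19, adjusted p = 0.035), the only rise in the list that passed the test. When 1 library was left out, Stag2 and Smc3 were each called in 2 of 6 fits, and Smchd1 and Lrif1 in 1 of 6. Ctcf had 68.4, 67.6 and 69.7 CPM in Ctrl libraries 2, 4 and 6 and 56.8, 60.9 and 61.9 CPM in Sox2 cKO libraries 1, 3 and 5. These groups were apart but the gene, named here after its values were seen, was not called (log2 fold change -0.20, adjusted p = 0.072). After the length correction, 1 gene of the list was called lower (Smc3) and 1 higher (Lrif1), or 6.67% each beside 6.99% and 6.08% of all genes, and the median was -0.03.

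Of 20 signalling partners of protocadherins 7 were called lower and 1 higher, or 35% and 5% beside 12.4% and 12.2% of all genes, with a median of -0.19. Cyfip2 and Wasf3, members of the WAVE complex, had log2 fold changes of -0.60 (SE 0.13, adjusted p = 0.014) and -0.45 (SE 0.13, adjusted p = 0.03). Brk1, the small subunit of the same complex, was called higher without a correction (log2 fold change 0.51, SE 0.11, adjusted p = 0.016). In that fit the subunits did not move one way. Brk1 is short, with 1092 bases, and after the length correction it was not called (0.19, adjusted p = 0.12). When 1 library was left out in edgeR, Cyfip2 was called in 4, Brk1 in 3 and Wasf3 in 2 of 6 fits. The kinase gene Prkca had -0.37 (SE 0.08, adjusted p = 0.017) without a correction, and -0.05 (adjusted p = 0.66) after the length correction. It was called in 2 of the 6 edgeR fits without 1 library. After the length correction 3 of the 20 were called lower, or 15% beside 6.99% of all genes, Cyfip2 and Wasf3 among them, and 0 higher, where 2 had an unadjusted p below 0.05 in that direction and DESeq2 without a correction called 1. Wasf3 was not called with the longest transcript in the correction (-0.32, adjusted p = 0.07).

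Other cadherins give a comparison within the superfamily. Of 19 classical and type II cadherin genes 5 were called lower and 0 higher in edgeR, or 26.3% and 0% beside 12.4% and 12.2% of all genes, with 0 higher at an unadjusted p below 0.05 and 0 higher in DESeq2, and the median was -0.18. Cdh22 had -0.66 (adjusted p = 0.016), Cdh6 -0.63 (adjusted p = 0.034), Cdh12 -0.54 (adjusted p = 0.031) and Cdh2, the N-cadherin of neural cells, -0.40 (adjusted p = 0.016). A further list held 14 genes, the Fat, Dachsous, Celsr and calsyntenin genes with Cdh23 and Cdhr1. Dchs2 was not analysed here and 12 were tested, with a median of 10910 bases, of which 6 were called lower and 0 higher, or 50% lower beside 36% in the longest bin of all genes, with 0 higher at an unadjusted p below 0.05 and 0 in DESeq2. Their median was -0.37, and the 4 largest changes were those of Celsr2 (-0.67, adjusted p = 0.016), Fat3 (-0.65, adjusted p = 0.013), Fat1 (-0.62, adjusted p = 0.014) and Dchs1 (-0.58, adjusted p = 0.013). After the length correction 3 classical and type II genes (15.8%) and 1 of the other list (8.33%) were called lower, beside 6.99% of all genes. The 3 were Cdh22, Cdh2 and Cdh6, of which Cdh6 was not called with the longest transcript (-0.32, adjusted p = 0.14). Cdh12 lost its call in the length correction (-0.35, adjusted p = 0.097). The 1 of the other list was Clstn3, named after its values were seen, and Celsr2 (-0.27), Fat3 (-0.13), Fat1 (-0.16) and Dchs1 (-0.20) were no longer called. The protocadherin medians of -0.30 and -0.43 thus stand beside -0.18 and -0.37 in these lists, or -0.25 and -0.10 beside -0.10 and -0.13 after the length correction, and no difference between lists was tested.

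Markers of some cell types moved with the protocadherins. The 9 oligodendrocyte precursor markers with a row, of 10 listed (Lhfpl3 was not analysed here), added up to 820.3, 935.1 and 1013 CPM in Ctrl libraries 2, 4 and 6, and 691.1, 684.8 and 723.9 CPM in Sox2 cKO libraries 1, 3 and 5, and 7 of the 9 were called lower and 0 higher (0 higher also at an unadjusted p below 0.05 and in DESeq2). This and the counts of the other marker lists stand beside 12.4% lower and 12.2% higher of all genes, or 6.99% and 6.08% with the length correction. Their most abundant gene per length, Olig1, was not called without a correction (log2 fold change -0.19, adjusted p = 0.13). With the length correction Olig1 was called lower (-0.33, adjusted p = 0.034). The 12 astrocyte markers added up to 8935, 9375 and 10839 CPM in Ctrl and 6922, 6911 and 7144 CPM in Sox2 cKO, with 6 called lower and 1 higher. With the length correction 5 precursor and 3 astrocyte markers were called lower and 0 higher, where 0 and 2 were higher at an unadjusted p below 0.05. Gfap, the most abundant of these per length, had a log2 fold change of -1.11 (SE 0.15, adjusted p = 0.01). Both sums were apart between the groups, as were the protocadherin sums. Their part in the protocadherin values was not tested.

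Markers of neurons, the cells in which clustered protocadherins are best known, overlapped between the groups in their sum. The 12 genes added up to 10484, 9958 and 10411 CPM in Ctrl libraries 2, 4 and 6, and 10068, 10199 and 10416 CPM in Sox2 cKO libraries 1, 3 and 5. The groups overlapped, and 1 gene was called higher and 0 lower (1 lower and 3 higher both in DESeq2 and at an unadjusted p below 0.05 in edgeR). The most abundant gene per length, Nefm, was not called in edgeR (log2 fold change -0.28, adjusted p = 0.059). Its CPM were apart between the groups, and DESeq2 called it lower (adjusted p = 0.012). DESeq2 called Snap25, Stmn2 and Slc32a1 higher, so the sum holds genes with opposite directions. The 10 oligodendrocyte markers ranged in their sum from 32511 to 36398 CPM in Ctrl, and from 32821 to 35345 CPM in Sox2 cKO. None was called in either direction by edgeR, while 2 had an unadjusted p below 0.05 and DESeq2 called 3 lower. With the length correction edgeR called 2 of them lower, and 3 with the longest transcript, and 1 neuron marker higher, or 2 with the longest transcript. Their most abundant gene per length, Mbp, had a log2 fold change of 0.19 (adjusted p = 0.18).

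In the microglia and endothelial lists library 1 had the highest sum. The 9 microglia markers added up to 304.2, 304.4 and 342.9 CPM in Ctrl and 352.9, 288.9 and 256.5 CPM in Sox2 cKO libraries 1, 3 and 5, with 1 called higher and 0 lower in edgeR, 3 lower and 3 higher at an unadjusted p below 0.05, and 3 lower and 2 higher in DESeq2. Their most abundant gene per length, C1qa, had 80.2 CPM in library 1 and between 31.6 and 49.3 CPM in the others. The 9 endothelial markers added up to 236.1, 268.5 and 273.1 CPM in Ctrl and 327.1, 232.2 and 247.5 CPM in Sox2 cKO libraries 1, 3 and 5, with 1 called higher and Cldn5 at 43.6 CPM in library 1 against 15.5 to 19.3 CPM in the others. The same library had the highest count of the endothelial gene Pcdh12. Of 10 mural cell and fibroblast markers 1 was called higher, and the sums overlapped between 256.7 and 397.2 CPM, with Dcn the most abundant gene per length. Ctrl library 6 had the lowest of these sums, and also the lowest for 5 Schwann cell markers, of which 0 were called. The Schwann cell sums were 65.5, 50.8 and 23.2 CPM in Ctrl libraries 2, 4 and 6. In Sox2 cKO libraries 1, 3 and 5 they were 67.2, 45.3 and 55 CPM. Of 7 ependymal markers 1 was called lower, Foxj1 (log2 fold change -0.35, adjusted p = 0.025), and the sums were 52.3, 59.1 and 65.4 CPM in Ctrl and 47.6, 48.3 and 51.1 CPM in Sox2 cKO. With the length correction the calls were 1 lower and 1 higher for microglia, 1 higher each for endothelial and for mural cell and fibroblast, and 1 lower for ependymal markers. No marker of these cell type lists was at 0 in all libraries. Of the 12 spinal cord genes 1 was called higher, and 1 lower and 1 higher with the length correction, and Hoxb8 was not called (log2 fold change 0.04, adjusted p = 0.73). Genes of muscle, sensory ganglia and forebrain added up to 11.1, 10.3 and 6.28 CPM in Ctrl and 19.5, 4.78 and 41.5 CPM in Sox2 cKO libraries 1, 3 and 5, with the muscle gene Acta1 the most abundant per length, 0 called in edgeR, 2 at an unadjusted p below 0.05 and 0 called in DESeq2.

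**Figure D5:**
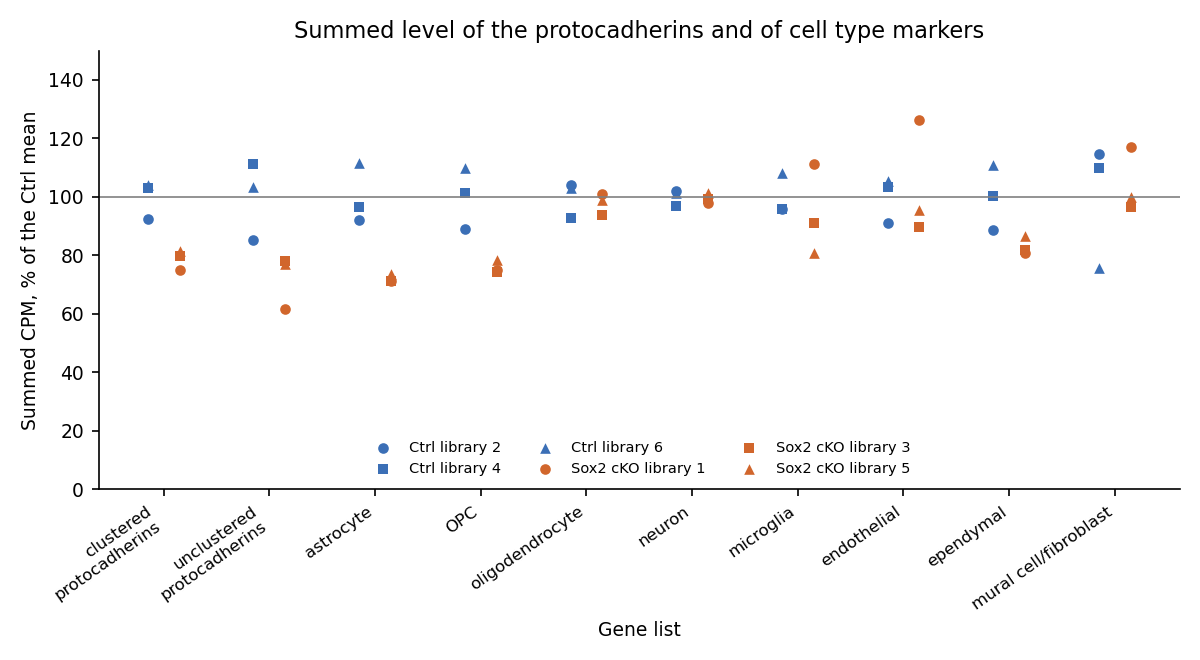
Summed CPM of both protocadherin classes and 8 cell type marker lists in each library as a percentage of the Ctrl mean of that list, with 1 point per library. The gamma row makes up 59.8% of the clustered sum in Ctrl. Protocadherin, astrocyte, oligodendrocyte precursor and ependymal sums are apart between the groups, the other 5 sums drawn, among them neuron and oligodendrocyte, overlap, and Sox2 cKO library 1 is the highest endothelial sum (327.1 CPM).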

How the data were processed

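Poly(A) RNA of 6 spinal cords was sequenced single-end from stranded libraries. The authors aligned reads to mm10 with STAR 2.5 and deposited raw read counts per gene made with HTSeq 0.6.1. The authors also deposited FPKM computed from the same counts and a gene length. Counting mode, strand setting and annotation release were not stated. The columns carry numbers that match no sample title. They were grouped by their last digit, even for Ctrl and odd for Sox2 cKO, after the mouse numbers on a blot of the study (0 unmapped). As a check, group means of 1999 of 1999 genes in a list of the authors matched within a relative tolerance of 0.001, and 0 matched with the groups exchanged.

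Differences between groups came from the counts by edgeR 4.0.16 under R 4.3.3 (filterByExpr, TMM, quasi-likelihood test, Benjamini-Hochberg over all genes tested, adjusted p below 0.05). The biological coefficient of variation was 0.119. The standard error is the log2 fold change divided by the root of the F statistic. Depth ran from 21507911 to 28392184 counted reads. Alternatives were DESeq2 1.42.0, upper quartile normalization, other filters, limma 3.58.1 on log2 FPKM with a mean of at least 0.5, corrections for gene length and GC content (lowess span 0.3), a member threshold of 100 and leaving out each library. The pipeline was tested on simulated data.

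Members and lists were chosen with earlier results of these data known. Named with values are Sox2, unclustered members, C-type isoforms, the most abundant member of each cluster, clustered members with a call, up to 4 called genes with the largest change in each further list, and the most abundant gene of each marker list.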

Additional observations from a re-analysis of the deposited data

How the results depend on the processing

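No member of either class was called higher under any setting run, and Sox2 stayed lower and called under each setting in which it was run, that is all but DESeq2 without 1 library and the member threshold of 100 (-3.07 to -2.56 when 1 library was left out). The counts of members called lower did depend on settings. With 4 clustered and 5 unclustered members called in edgeR, DESeq2, no filter, a mean count of at least 50, the GC correction and a member threshold of 100 gave counts within 1.5 times of these. Upper quartile normalization gave 2 clustered members. limma on FPKM gave 1 clustered and 2 unclustered members with a pseudocount of 1, and 1 and 2 with 0.1. The length correction gave 1 and 1. With the longest transcript, a setting chosen after seeing the data, 1 unclustered member was called. The cause was not tested.

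The median log2 fold change of clustered members was -0.10 and -0.15 in limma with pseudocounts of 1 and 0.1, and -0.22 in the correction by longest transcript. That of unclustered members was -0.24 in limma with a pseudocount of 1, -0.10 in the length correction and -0.06 with the longest transcript. In limma the median of all genes was 0.09 and 0.11 for the pseudocounts of 1 and 0.1, and the whole table shifted from 2008 lower and 1962 higher to 915 lower and 2670 higher, and 896 lower and 2614 higher, so its medians are to be read against that shift. The cause was not tested.

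Leaving out 1 library at a time, edgeR called 0 to 8 clustered and 0 to 7 unclustered members lower, and 0 to 0 higher in both classes. Their medians ran from -0.35 to -0.22 and from -0.49 to -0.32. DESeq2 without 1 library, added after seeing the data, called 1 to 6 and 2 to 7 lower, with medians from -0.36 to -0.23 and from -0.51 to -0.32. Pcdhgc4, Pcdh9 and Pcdh17 were called lower in each of these DESeq2 fits. Over the whole table edgeR called 5 lower and 3 higher without Sox2 cKO library 1, and DESeq2 1376 and 966.

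Small estimates changed sign. Pcdh11x was 0.05 and Pcdh20 0.02 in the length correction, and 0.06 and 0.01 with the longest transcript, against -0.27 and -0.13. Hoxb8 was -0.04 and -0.06 in these settings, against 0.04. Pcdh18, at -0.01 in edgeR, was 0.03 with upper quartile normalization, 0.05 and 0.08 in limma with pseudocounts of 1 and 0.1, 0.14 in the length correction, 0.12 with the longest transcript, and between -0.07 and 0.02 without 1 library. The cause was not tested, and none of these 4 genes was called in edgeR.

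No paired analysis was possible because the columns do not show the replicate numbers of the labels.

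These values rest on 3 mice per group. Rows of the alpha and gamma clusters mix isoforms, beta genes with few counts (Pcdhb4 had 183 in all) are measured with wide errors, and whole cord does not separate cell types. Control genotype, sex and age are not settled for single libraries.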
